A study of Mus musculus with 27 samples.

Results

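The change with time after 7 Gy was followed in mouse thyroid gland organoids by comparing 3 RNA sequencing libraries collected at day 11 of culture with 3 libraries collected at day 7, chosen by dose and day from the 27 libraries of the series. Every organoid in these 6 libraries was exposed to photons at day 5, so that day 7 stands 2 days and day 11 stands 6 days after the exposure. The cells came from thyroid glands of C57BL/6 mice aged 8 to 12 weeks and grew as organoids in Matrigel, in DMEM/F12 with glutamax, antibiotics, B27, the growth factors EGF and FGF2, and the kinase inhibitor Y27632. The unirradiated organoids (0 Gy), with 3 libraries at each of the same days, shared the animals' strain and age and the medium, and organoids given 2 or 4 Gy were also sampled at both days, which makes 24 libraries in all for tests between doses. The culture names mTG11, mTG12 and mTG14 recur at each day and dose and were used as a replicate block. The labels number 3 mice at each condition and the study's design text counts 4 mice, and which culture came from which numbered mouse is not stated.

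After a large dose of ionising radiation, broken DNA activates the transcription factor p53, which induces the cell cycle inhibitor p21 and genes of apoptosis and repair, while the genes of S phase and mitosis are switched off in arrested cells. Cells that survive may start to divide again as p53 targets decline. DNA damage can also induce the interferon response, which raises antiviral genes and the genes that present antigen on MHC class I. Epithelial organoids meanwhile mature with age in culture, so a change between days in irradiated organoids can be read only beside the change between the same days without irradiation.

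The 6 libraries held between 3661836 and 5723150 counts, the 2 deepest being mTG11 and mTG12 at day 11. A floor of 3 counts then corresponds to 0.524 to 0.819 CPM (counts per 1000000 counts of the library), a limit that covers counting error only. The deviations of day 7 and day 11 libraries from their group means were correlated within each culture (correlation across genes 0.305 to 0.455 in 3 cultures, n = 9484 genes). The mean of -0.20 between different cultures follows from taking deviations from group means, so it adds no separate evidence of the pairing. Keratins and other markers of stratified epithelium were abundant, whereas the defining markers of thyroid follicular cells were scarce. Tg, the gene of thyroglobulin, was at 0, 3.08 and 0.798 CPM at day 7 and 0.699, 4.68 and 1.37 CPM at day 11, in the order mTG11, mTG12 and mTG14 used throughout. The genes Tshr, Slc5a5 and Pax8 had at most 4 counts over the 3 libraries of either day and were not tested, whereas the thyroid transcription factor gene Foxe1 was at 20.3, 26.7 and 30.1 CPM at day 7 and 21.5, 28.9 and 33.6 CPM at day 11.

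With edgeR's quasi-likelihood test and the culture block, 3974 of the 18173 genes tested differed between day 11 and day 7 (21.9%, Benjamini-Hochberg adjusted p under 0.05). Of these, 2049 were higher at day 11 (11.3% of the genes tested) and 1925 were lower (10.6%), and 752 rose and 453 fell by more than 2-fold. The list counts at 7 Gy below are to be read beside these shares of all genes. The median log2 fold change over all genes tested was 0.01. Log2 fold changes are given as day 11 minus day 7 throughout, with their standard error (SE), and p-values are adjusted over all genes tested. Without the culture block 2645 genes were called, and with 1 library also left out the count was between 1465 (without mTG11 at day 11) and 2404 (without mTG12 at day 11). The CPM of the 3 libraries at day 11 did not overlap those at day 7 for 6127 genes (33.7%). In all these comparisons of bulk RNA, fewer cells of a type and less RNA per cell cannot be told apart.

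The 12 largest rises included genes of antigen presentation, interferon response and mucosal defence. H2-Q7 and H2-Q9, a pair of closely related MHC class I genes, had nearly the same value in each library, and none of these values was a whole count, as where reads are split between genes, so the pair cannot be told apart. H2-Q7 was at 1.74, 0.650 and 1.15 CPM at day 7 and 56.7, 21.0 and 33.3 CPM at day 11 (log2 fold change 4.92, SE 0.21, adjusted p = 1.06e-07). The interferon-inducible gene Ifi27l2a rose from 61.4, 9.51 and 31.4 CPM to 884, 499 and 631 CPM (log2 fold change 4.42, SE 0.22, adjusted p = 1.88e-07). The rule for naming these rises required that the groups do not overlap, so the lack of overlap adds nothing for them. Wfdc12, of the family of small secreted protease inhibitors, rose 19.2-fold, from 3.76, 7.97 and 8.78 CPM to 105, 146 and 141 CPM (adjusted p = 3.4e-08). Duox2 and Duoxa2, which encode the hydrogen peroxide-producing oxidase of thyroid and mucosal epithelium and its maturation factor, rose 8.66-fold and 16.8-fold. Muc21, a membrane mucin gene, was at 16.3, 21.1 and 18.1 CPM at day 7 and 185, 126 and 170.1 CPM at day 11 (adjusted p = 1.83e-07). Olfm4, which encodes a secreted glycoprotein of mucosal epithelia, was at 2.51, 1.28 and 1.86 CPM at day 7 and 34.6, 15.7 and 27.3 CPM at day 11 (adjusted p = 5.62e-07). Igfbp2, the gene of a secreted binding protein for insulin-like growth factors, went from 5.26, 19.8 and 27.4 CPM to 49.6, 152 and 159 CPM (log2 fold change 2.80, SE 0.13, adjusted p = 1.83e-07), with mTG11 lowest at each day. The other rises past the rule for naming were the integrin gene Itgam (log2 fold change 3.28), the complement factor gene Cfb (2.72) and the predicted gene Gm38781 (4.29).

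The 12 largest falls included genes of the outer squamous layers. Calm4, which encodes a calmodulin-like protein of differentiating keratinocytes, fell from 42.9, 104 and 103 CPM to 5.59, 9.18 and 1.78 CPM (log2 fold change -3.78, SE 0.29, adjusted p = 4.73e-06). Krt16, a keratin of activated and hyperproliferative epidermis at chr11:100136917-100139795, minus strand in GRCm39, was at 993, 1364 and 1317 CPM at day 7 and 66.8, 375 and 134 CPM at day 11 (log2 fold change -2.98, SE 0.28, adjusted p = 1.99e-05). Of the cultures mTG12 had the highest level at day 11. Sprr1b, a precursor of the cornified envelope, was at 78.0, 201 and 109 CPM at day 7 and 4.89, 35.8 and 5.46 CPM at day 11 (log2 fold change -3.21, SE 0.25, adjusted p = 4.91e-06), again with mTG12 above the other cultures. Lce3b, of the late cornified envelope family, was at 21.5 ± 12.7 CPM at day 7 and 2.69 ± 2.66 CPM at day 11 (mean ± SD, n = 3 libraries). Dsg1b, a desmosomal cadherin gene, was at 25.8 ± 8.40 CPM at day 7 and 3.97 ± 4.90 CPM at day 11. Acsbg1, an acyl-CoA synthetase gene, and Them5, an acyl-CoA thioesterase gene, had log2 fold changes of -3.50 and -3.01. Lgr6, a receptor for R-spondins that marks epithelial progenitors, fell from 45.4, 18.2 and 20.2 CPM to 4.37, 1.62 and 3.55 CPM (adjusted p = 1.38e-06). Adam12, a metalloprotease gene, and Stab1, a scavenger receptor gene, had log2 fold changes of -3.26 and -2.73. Calcb, the gene of a calcitonin gene-related peptide, fell from 86.7, 87.6 and 76.6 CPM to 14.5, 12.4 and 8.47 CPM (log2 fold change -2.81, SE 0.13, adjusted p = 1.83e-07), and Teddm3 had a log2 fold change of -2.59.

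**Figure D1:**
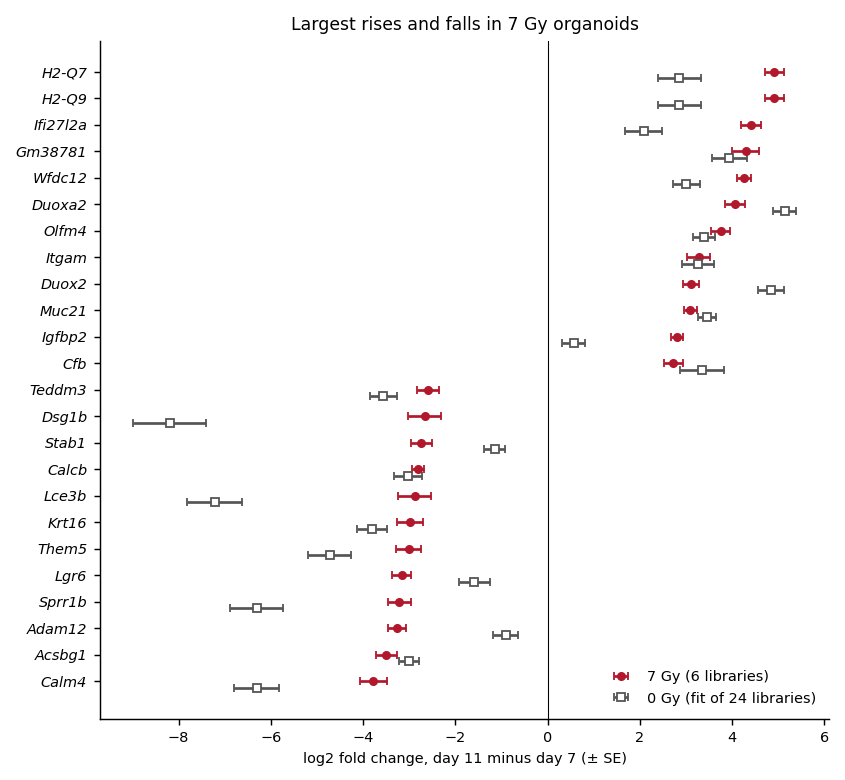
The 12 largest rises and 12 largest falls in 7 Gy organoids. The x axis gives the log2 fold change, day 11 minus day 7, with SE bars, the filled circles stand for 7 Gy (6 libraries) and the open squares for 0 Gy in the fit of 24 libraries. The signs are the same at both doses for all 24 genes. Among the falls, the squares of Dsg1b, Lce3b, Sprr1b, Calm4, Them5, Teddm3, Krt16 and Calcb lie farther from 0 than their circles. Among the rises, those of Duox2, Duoxa2, Cfb and Muc21 do. For the other genes the squares lie nearer to 0 or level with the circles.

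Genes of cell division moved in both directions at 7 Gy, and most were not called, whereas most fell in unirradiated organoids. In 7 Gy organoids, the proliferation marker Mki67 was at 39.1, 45.2 and 47.2 CPM at day 7 and 83.9, 77.1 and 65.8 CPM at day 11, a 1.73-fold rise (SE of the log2 fold change 0.125, adjusted p = 0.00096), and the groups did not overlap. Without irradiation it went the other way, from 120.4 ± 8.49 CPM at day 7 to 24.8 ± 1.53 CPM at day 11 (mean ± SD, n = 3). The difference between the doses in the day change (7 Gy minus 0 Gy), tested as an interaction in the fit of 24 libraries, was 3.07 on the log2 scale (SE 0.297, adjusted p = 3.72e-07). Such differences are given in the same way, on the log2 scale, for other genes. At day 7, Mki67 was lower after 7 Gy than without irradiation in each culture, and at day 11 it was higher in each. Cenpf and Knl1, genes of kinetochore proteins, had log2 fold changes of 0.88 (adjusted p = 0.000277) and 0.59 (adjusted p = 0.0166) at 7 Gy. Cenpf was at 25.3, 32.0 and 32.4 CPM at day 7 and 53.9, 55.9 and 54.9 CPM at day 11. Top2a, the gene of topoisomerase II alpha, was at 101, 94.4 and 89.3 CPM at day 7 and 109, 107 and 110.1 CPM at day 11, with a log2 fold change of 0.19 that did not pass the test (adjusted p = 0.128). At 0 Gy, Top2a was at 184 ± 27.2 CPM at day 7 and 57.5 ± 5.40 CPM at day 11 (difference 1.87, SE 0.18, adjusted p = 2.95e-07). The mitotic kinase gene Cdk1 was at 20.2, 25.2 and 20.6 CPM at day 7 and 28.5, 25.01 and 21.8 CPM at day 11 (adjusted p = 0.388). Its level at 0 Gy was 36.9 ± 3.76 CPM at day 7 and 11.1 ± 0.974 CPM at day 11 (difference 1.93, SE 0.23, adjusted p = 5.77e-06). Neither did Ccnb1, the gene of cyclin B1 (log2 fold change -0.08, adjusted p = 0.743), nor Plk1, the gene of polo-like kinase 1 (-0.57, adjusted p = 0.0708), pass the test at 7 Gy.

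Of the 45 mitosis and G2/M genes tested, 8 rose, 2 fell and 35 were not called (rises and falls were 6 and 0 without the block, 4 and 0 by DESeq2), with a median log2 fold change of 0.03 at 7 Gy. Over all genes 11.3% rose, 10.6% fell and 21.9% were called, so the share of the list called in either direction is near that of all genes. At 0 Gy, 44 of the 45 genes fell, against 11.3% of all genes in that comparison, with a median of -1.87. Counts at 0 Gy come from the fit of 24 libraries here and below, in which 4 of these genes rose and 1 fell at 7 Gy. The day change was more positive at 7 Gy than at 0 Gy for 43 of them and more negative for 1, where 3.61% and 1.65% of the 21928 genes tested were. Summed over the list, the level was 1158, 1179 and 1048 CPM at day 7 and 1337, 1259 and 1278 CPM at day 11 after 7 Gy, and it fell at 0 Gy from 1849 to 2206 CPM to 642 to 735 CPM. The genes of DNA replication and G1/S held a like position. Of 38 tested, 2 rose and 4 fell at 7 Gy (1 and 1 without the block, 0 and 1 by DESeq2, 1 and 3 in the fit of 24 libraries) (median -0.06). Without irradiation 32 fell (median -1.18), and 24 had a more positive day change at 7 Gy. The last count was 12 without culture mTG11 and 15 without mTG14. Rrm2, the small subunit of ribonucleotide reductase, fell at 7 Gy from 33.5, 36.6 and 21.4 CPM to 15.2, 18.8 and 13.9 CPM (adjusted p = 0.000521), while the large subunit gene Rrm1 and the ligase gene Lig1 rose (log2 fold changes 0.39 and 0.33). The replicative helicase gene Mcm5 was at 28.6, 30.6 and 26.3 CPM at day 7 and 24.8, 31.0 and 26.2 CPM at day 11 (adjusted p = 0.743). At 0 Gy, Mcm5 was at 41.1 ± 7.73 CPM at day 7 and 12.1 ± 1.99 CPM at day 11. Pcna, the sliding clamp of the replication fork, had a log2 fold change of -0.14 (adjusted p = 0.426), and Ccne2, the gene of cyclin E2, of -0.41 (adjusted p = 0.216).

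**Figure D2:**
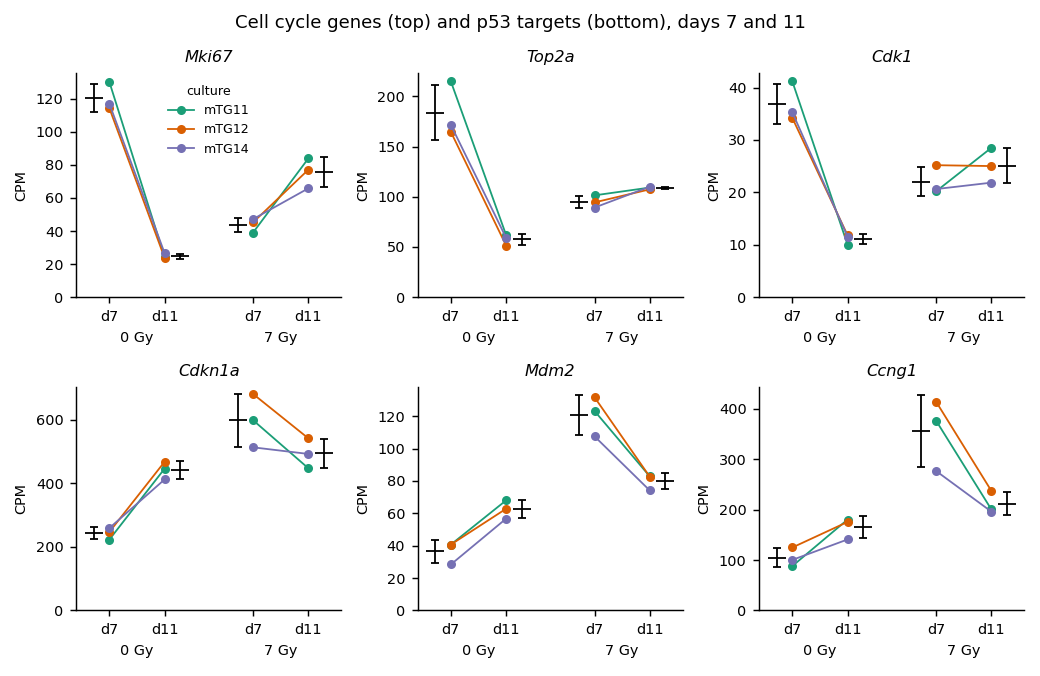
CPM of Mki67, Top2a and Cdk1 (upper row) and of the p53 targets Cdkn1a, Mdm2 and Ccng1 (lower row) at day 7 (d7) and day 11 (d11) after 0 and 7 Gy. Points are libraries joined by culture, and black bars give mean ± SD (n = 3). The lines of Mki67 slope down at 0 Gy and up at 7 Gy in all 3 cultures, and those of the p53 targets slope up at 0 Gy and down at 7 Gy.

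The promoters of the cell division genes are shown because 44 of 45 genes fell at 0 Gy and 2 at 7 Gy. Many genes of late cell cycle carry the CHR element, TTTGAA, at which the DREAM and MuvB complexes bind. RefSeq promoter windows of the 250 bases before a gene start (build GRCm38.p6, all starts of a gene pooled) were found for 38 of the 45 mitosis genes. The letters TTTGAA on either strand were present in 15 of these (39.5%), against 18.3% of all 27025 genes with a window and 13.7% of those tested, and in 4 of 30 replication genes (13.3%). The CCAAT box, CCAAT on either strand, was present in 27 (71.1%), against 37.5% of all and 40.3% of those tested. It was also present in 18 of 30 replication genes (60%) and in 13 of 16 antigen presentation genes (81.2%). The stretches around the CHR letters of 3 genes follow, 5′ to 3′ on the strand of the gene, with the CHR letters in capitals. A match describes the letters only.

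Mki67, chr7:135716457-135716516, minus strand, bases 137 to 78 before the start: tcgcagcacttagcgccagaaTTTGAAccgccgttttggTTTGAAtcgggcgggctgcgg
Cdk1, chr10:69352913-69352998, minus strand, bases 86 to 1 before the start: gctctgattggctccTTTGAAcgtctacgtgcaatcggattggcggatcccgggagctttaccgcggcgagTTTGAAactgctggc
Cdc20, chr4:118437344-118437403, minus strand, bases 60 to 1 before the start: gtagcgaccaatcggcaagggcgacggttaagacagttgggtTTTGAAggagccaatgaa

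Cdc20, which encodes an activator of the anaphase-promoting complex, was at 30.6, 36.2 and 29.3 CPM at day 7 and 21.8, 29.3 and 31.4 CPM at day 11 (adjusted p = 0.22). Its level at 0 Gy was 54.7 ± 4.68 CPM at day 7 and 12.4 ± 3.76 CPM at day 11 (difference 1.89, adjusted p = 1.01e-05).

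More p53 targets fell than rose with time after 7 Gy, and more rose than fell without irradiation. Of 30 tested, 12 fell and 3 rose at 7 Gy (median log2 fold change -0.24, with 7 lower by DESeq2), against 1 and 18 at 0 Gy (median 0.65, with 10.4% of all genes called higher there). In the fit of 24 libraries 11 fell and 2 rose at 7 Gy. The day change was more negative at 7 Gy for 18 of the 30 and more positive for 0, and the count of 18 was 9 without culture mTG11. Ccng1, the gene of cyclin G1, was at 376, 414 and 277 CPM at day 7 and 201, 237 and 196 CPM at day 11 (log2 fold change -0.74, SE 0.08, adjusted p = 6.79e-05). Without irradiation Ccng1 was at 104 ± 18.7 CPM at day 7 and 165 ± 21.5 CPM at day 11. Mdm2, the ubiquitin ligase that degrades p53, went from 123, 132 and 108 CPM to 82.8, 82.6 and 74.1 CPM (log2 fold change -0.60, SE 0.08, adjusted p = 0.000394). In both genes every library at day 7 lay above every library at day 11, and the day 11 level was still above the unirradiated one in each culture. Cdkn1a, the gene of p21, was at 598, 681 and 513 CPM at day 7 and 447, 541 and 492 CPM at day 11. Its log2 fold change of -0.28 (adjusted p = 0.0205) did not pass the test without the block (adjusted p = 0.104), without mTG11 (adjusted p = 0.111) or without mTG12 (adjusted p = 0.125). At 0 Gy Cdkn1a was at 243 ± 18.4 CPM at day 7 and 442 ± 28.1 CPM at day 11, and the difference between the doses was -1.14, SE 0.14, adjusted p = 1.27e-05. Bbc3, which encodes the pro-apoptotic protein PUMA, fell from 17.0, 14.4 and 14.6 CPM to 5.42, 7.74 and 5.19 CPM (adjusted p = 0.000789). Eda2r, a receptor gene of the tumour necrosis factor family, and Ak1, of adenylate kinase 1, had log2 fold changes of -0.77 and -1.11. Against these, Pmaip1, which encodes the pro-apoptotic protein NOXA, rose from 103, 127 and 90.2 CPM to 158, 173 and 148 CPM (adjusted p = 0.00046), and the polo-like kinase gene Plk2 rose by a log2 fold change of 0.35. Phlda3, which encodes an inhibitor of Akt signalling, had a log2 fold change of -0.17 (adjusted p = 0.153). Gdf15, a stress cytokine gene, rose from 4.51, 4.88 and 2.66 CPM to 8.04, 8.28 and 9.28 CPM (adjusted p = 0.0132).

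Among the cyclin-dependent kinase inhibitors and D cyclins, 1 of 15 rose and 3 fell, where 11.3% of all genes rose and 10.6% fell. Without irradiation 3 rose and 2 fell. Ccnd1, the gene of cyclin D1, was at 1220.1, 1181 and 989 CPM at day 7 and 901, 832 and 804 CPM at day 11 (log2 fold change -0.42, SE 0.07, adjusted p = 0.000868). At 0 Gy its log2 fold change was 0.17 (difference -0.59, adjusted p = 0.00662, and adjusted p = 0.231 without mTG11 and 0.112 without mTG14). Cdkn1b, the gene of the inhibitor p27, rose by a log2 fold change of 0.50, and Trp53 itself fell by 0.56 on the log2 scale. The senescence-associated inhibitor genes Cdkn2a and Cdkn2b had log2 fold changes of 0.31 (adjusted p = 0.101) and 0.13 (adjusted p = 0.322), and Lmnb1, a lamin gene whose loss marks senescent cells, of 0.03 (adjusted p = 0.879). Of 20 homologous recombination and Fanconi genes 1 rose and 0 fell, and of 24 damage sensing and end joining genes 3 rose and 0 fell (1 and 0 without the block, 0 and 0 by DESeq2). The share of the latter that rose is near the 11.3% of all genes. Without irradiation 10 of the 20 recombination genes fell (median -1.17), and 7 had a more positive day change at 7 Gy. Of the 24 sensing genes 5 fell at 0 Gy, and 1 had a more positive day change at 7 Gy. The kinase gene Atm had a log2 fold change of 0.53 (adjusted p = 0.0851) and Brca1 of 0.23 (adjusted p = 0.628). H2ax, the histone variant gene whose phosphorylated product marks DNA breaks, had a log2 fold change of 0.10 (adjusted p = 0.634).

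Most genes of MHC class I antigen presentation rose at 7 Gy. Of 18 tested, 12 rose and 0 fell (median 0.79), and 6 rose with no block and without the day 7 library of mTG14. At 0 Gy 8 of them rose (median 0.55), and the medians were 1.16 at 2 Gy and 1.10 at 4 Gy. The day change was more positive at 7 Gy than at 0 Gy for 3 genes, and by edgeR for 0 against 2 Gy and 0 against 4 Gy (3 and 1 differed in either direction at an unadjusted p under 0.05). B2m, the common light chain of class I molecules, was at 360.4, 164 and 235 CPM at day 7 and 1595, 792 and 1045 CPM at day 11, a 4.55-fold rise (SE of the log2 fold change 0.0706, adjusted p = 3.4e-08). It was at 101 ± 14.6 CPM at day 7 and 235 ± 63.5 CPM at day 11 without irradiation, and the day change was larger after 7 Gy (1.00, SE 0.21, adjusted p = 0.00377). The heavy chain gene H2-K1 rose from 338, 208 and 222 CPM to 1158, 595 and 856 CPM (log2 fold change 1.75, SE 0.08, adjusted p = 1.83e-07), and the difference from 0 Gy was 1.15, SE 0.24, adjusted p = 0.00398. Without culture mTG14 neither of these differences passed the test (adjusted p = 0.0827 for B2m and adjusted p = 0.0833 for H2-K1). Psmb8, a subunit of the immunoproteasome, was at 29.3, 10.0 and 13.8 CPM at day 7 and 84.0, 43.2 and 57.9 CPM at day 11 (log2 fold change 1.83, SE 0.13, adjusted p = 3.58e-06). For these 3 genes the lowest library at day 11 lay above the highest at day 7, and mTG11 was the highest and mTG12 the lowest library at each day.

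The interferon-stimulated genes rose beside them, but with calls that rest on the pairing of cultures. Of 50 tested, 31 rose and 0 fell (median 0.70), and without the culture block 5 rose. The list summed to 5655, 2565 and 3647 CPM at day 7 and to 7892, 5015 and 6426 CPM at day 11, so each culture rose while mTG11 at day 7 stood above mTG12 at day 11. Ifit1, an antiviral RNA-binding protein gene, was at 207, 36.8 and 101 CPM at day 7 and 319, 142 and 228 CPM at day 11 (log2 fold change 1.17, SE 0.17, adjusted p = 0.000546, and adjusted p = 0.229 without the block). Isg15, the gene of a ubiquitin-like antiviral modifier, was at 293, 46.2 and 109.9 CPM at day 7 and 297, 159 and 235 CPM at day 11 (adjusted p = 0.016, and 0.485 as the adjusted p without the block), with almost the same level at both days in mTG11. The call was also lost without mTG12 (adjusted p = 0.0878) or mTG14 (adjusted p = 0.121). Irf7, the transcription factor that amplifies the response, rose from 101, 22.6 and 59.1 CPM to 209.8, 122 and 169 CPM (log2 fold change 1.57, SE 0.18, adjusted p = 8.89e-05, and adjusted p = 0.0511 without the block). Oasl2, of the oligoadenylate synthetase-like family, had a log2 fold change of 1.17 (adjusted p = 0.00335, and 0.223 as the adjusted p without the block). Trim30a and Oas2, both interferon-inducible, rose by log2 fold changes of 2.44 and 2.20. At 0 Gy, 35 of the 50 rose with a median of 1.40 and from a lower summed level, 1825 to 2444 CPM at day 7. The day change was more negative at 7 Gy for 9 of them and more positive for 2, Ifi27l2a being among the latter (2.55, SE 0.54, adjusted p = 0.00432).

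The interferon genes themselves were hardly seen. Ifnb1, Ifna4, Ifnk, Ifne, Ifnl2 and Ifng had 0 counts in the 6 libraries and Ifnl3 had 3 counts at day 7 and 0 at day 11, and none was tested. Of 14 receptors and sensors tested, 4 rose and 1 fell (2 and 1 without the block, 3 and 0 by DESeq2), where 11.3% of all genes rose and 10.6% fell. Ifnar1 was at 32.0, 39.0 and 30.2 CPM at day 7 and 33.8, 33.4 and 32.0 CPM at day 11 (adjusted p = 0.888), Ifnlr1 had a log2 fold change of 0.75 (adjusted p = 0.074), and the DNA sensor gene Cgas of 0.17 (adjusted p = 0.619). Its adaptor gene Sting1 had a log2 fold change of 1.29 (adjusted p = 5.28e-05), and the receptor chain genes Ifngr1 and Ifngr2 of 0.65 (adjusted p = 0.000322) and 0.52 (adjusted p = 0.00113).

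Promoters of the interferon-stimulated genes are shown because 31 of the 50 tested rose (5 without the block). The interferon-stimulated response element (ISRE) was searched on both strands as TTTC, any 2 bases and TTTC. It was found in 18 of the 38 listed genes with a RefSeq window (47.4%) and in 3 of 16 antigen presentation genes (18.8%), against 3.46% of all genes with one. The stretches of 3 members follow, with the matched letters in capitals. Neighbouring matches overlap in Isg15.

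B2m, chr2:122147513-122147572, plus strand, bases 174 to 115 before the start: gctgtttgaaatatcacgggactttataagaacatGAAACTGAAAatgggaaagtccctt
Ifit1, chr19:34640769-34640828, plus strand, bases 120 to 61 before the start: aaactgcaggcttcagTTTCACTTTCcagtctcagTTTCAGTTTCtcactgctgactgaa
Isg15, chr4:156200860-156200919, minus strand, bases 101 to 42 before the start: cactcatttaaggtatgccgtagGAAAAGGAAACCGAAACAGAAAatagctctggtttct

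**Figure D3:**
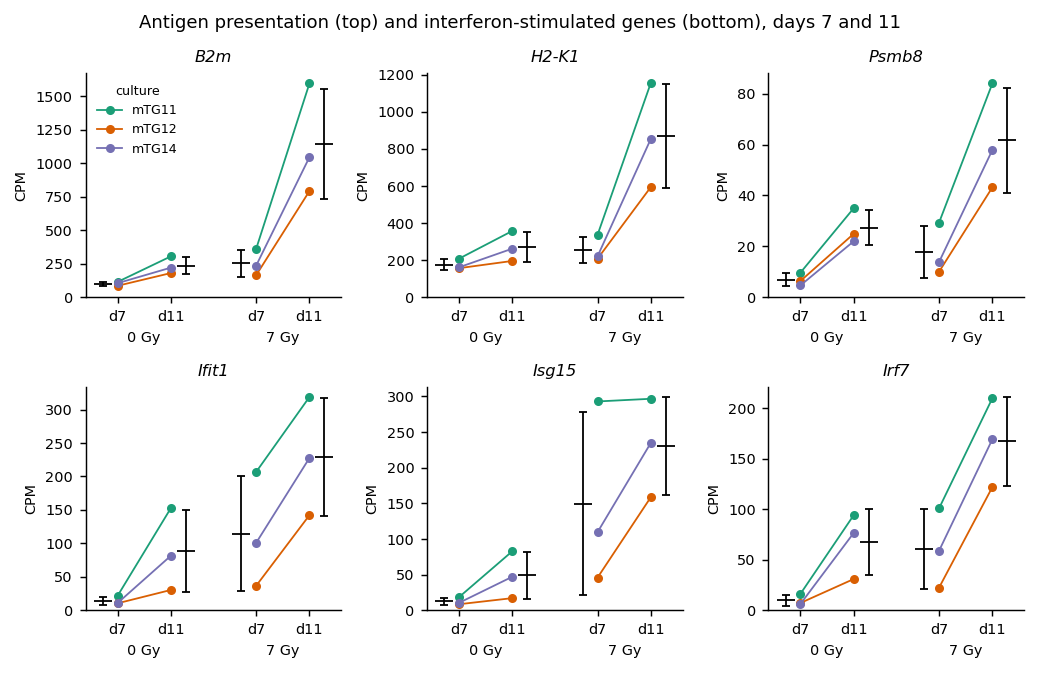
CPM of the antigen presentation genes B2m, H2-K1 and Psmb8 (upper row) and of Ifit1, Isg15 and Irf7 (lower row) at day 7 (d7) and day 11 (d11) after 0 and 7 Gy. Points are libraries joined by culture, and black bars give mean ± SD (n = 3). At 7 Gy the groups do not overlap in the upper row, whereas those of Ifit1 and Isg15 overlap, with mTG11 high and mTG12 low at day 7.

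Most basal layer genes fell, at 7 Gy as at 0 Gy. Of 18 tested, 15 fell and 2 rose (median -0.87), against 13 and 0 at 0 Gy (median -0.77), and the day change was more positive at 7 Gy for 3 and more negative for 2. Krt14, the basal keratin, was at 4259, 5508 and 4949 CPM at day 7 and 1077, 2370.0 and 1620.0 CPM at day 11 (log2 fold change -1.61, SE 0.11, adjusted p = 2.1e-06). Its partner Krt5 was at 4672, 5597 and 5147 CPM at day 7 and 2648, 3467 and 3055 CPM at day 11 (log2 fold change -0.76, SE 0.06, adjusted p = 6.84e-06). Krt6b, a wound-associated keratin gene, fell by 1.98 and the basal keratin gene Krt15 by 0.31 on the log2 scale. Trp63, the transcription factor of basal cells, was at 80.7, 82.7 and 87.9 CPM at day 7 and 92.3, 103 and 89.8 CPM at day 11. It did not pass the test (adjusted p = 0.196), whereas at 0 Gy it went from 130.3 ± 7.48 CPM to 74.9 ± 18.0 CPM (difference 0.99, SE 0.17, adjusted p = 0.000375, and adjusted p = 0.0515 without mTG11). Ngfr, a neurotrophin receptor gene that marks basal progenitors, rose from 56.6, 25.2 and 49.5 CPM to 114, 69.0 and 86.0 CPM (log2 fold change 1.06, SE 0.12, adjusted p = 0.000105). At 0 Gy, Ngfr was at 94.3 ± 16.7 CPM at day 7 and 82.5 ± 11.1 CPM at day 11 (difference 1.24, adjusted p = 0.00165). Dst, the gene of the hemidesmosome linker dystonin, was the other riser (log2 fold change 0.44).

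In simple epithelium, 7 of 12 genes rose and 3 fell (5 and 1 without the block, 6 and 2 by DESeq2), against 7 and 2 at 0 Gy. Over all genes 11.3% rose and 10.6% fell at 7 Gy. Krt7, a keratin of ductal and glandular epithelium, was at 621, 529 and 446 CPM at day 7 and 1234, 891 and 1145 CPM at day 11 (log2 fold change 1.03, adjusted p = 1.7e-05), and Krt23 rose by 2.14 on the same scale. The mucin gene Muc1 rose from 21.1, 10.0 and 18.6 CPM to 92.8, 39.2 and 63.4 CPM. Krt20 fell from 204, 128 and 173 CPM to 38.3, 23.03 and 36.9 CPM (log2 fold change -2.38, SE 0.09, adjusted p = 5.2e-08), and its fall was larger than at 0 Gy (difference -1.24, adjusted p = 0.013). Krt19 fell by 0.46 (adjusted p = 0.000618, and adjusted p = 0.221 without the block), Cldn4 rose by 0.47, and Krt8 had a log2 fold change of -0.21 (adjusted p = 0.312). Of 19 tight junction genes, 10 rose and 0 fell (median 0.40), against 11 and 1 at 0 Gy (median 0.54). The rises at 7 Gy included Cldn23 (log2 fold change 1.99) and Pard6b (1.42). Ocln, the gene of occludin, was at 19.6, 13.1 and 16.5 CPM at day 7 and 24.6, 22.9 and 25.1 CPM at day 11 (log2 fold change 0.56, SE 0.14, adjusted p = 0.0149, and adjusted p = 0.0518 without the block).

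Fewer genes of squamous differentiation fell after 7 Gy than without irradiation. Of 34 cornified envelope and protease genes tested at 7 Gy, 14 fell and 5 rose (8 and 5 without the block, 14 and 5 by DESeq2) (median -0.56). In the fit of 24 libraries, 13 of 38 fell and 5 rose at 7 Gy (median -0.54). In the same fit 25 fell and 3 rose at 0 Gy (median -1.91). Of the 38, 19 had a more positive day change at 7 Gy than at 0 Gy and 0 a more negative one. The count of more positive changes was 11 without the block and 11 without culture mTG11. Asprv1, a protease gene of the granular layer, was at 6.27, 12.1 and 23.9 CPM at day 7 and 5.07, 13.7 and 7.37 CPM at day 11 (adjusted p = 0.185). At 0 Gy, Asprv1 was at 65.3 ± 23.5 CPM at day 7 and 0.719 ± 0.807 CPM at day 11, the most positive difference of all genes past the rule for naming (5.93, SE 0.74, adjusted p = 1.08e-05). Lor, the gene of loricrin, was at 7.77, 17.2 and 20.0 CPM at day 7 and 1.75, 12.2 and 3.28 CPM at day 11 (log2 fold change -1.40, SE 0.33, adjusted p = 0.0107, and adjusted p = 0.158 without the block). At 0 Gy, Lor was at 84.9 ± 40.9 CPM at day 7 and 1.03 ± 0.804 CPM at day 11. The level after 7 Gy was below that at 0 Gy at day 7, and at day 11 mTG12 was the highest of the 3 libraries for Lor, Rptn, Lce3e, Lce3f and Dsg1b alike. Rptn, of the repetin precursor of the cornified envelope, was at 4.01, 8.48 and 14.6 CPM at day 7 and 1.57, 9.54 and 1.91 CPM at day 11 (adjusted p = 0.123). The late cornified envelope genes Lce3e and Lce3f had log2 fold changes of -1.98 (adjusted p = 0.00607, and 0.0852 as the adjusted p without the block) and -2.52 (adjusted p = 0.000255) at 7 Gy, beside -7.77 and -8.33 at 0 Gy. Values were fractional in 5 of the 6 libraries at 7 Gy for Lce3b, Lce3e and Dsg1b, and in 3 for Lce3f. This is as where reads are split between similar genes, so these genes may share reads and need not be separate observations. Asprv1, Lor, Rptn, Lce3e, Lce3f and Dsg1b were below 2 CPM in every 0 Gy library at day 11, so the size of their day change at 0 Gy depends on the prior count that the fit adds. The differences of Rptn, Lce3e, Lce3f and Dsg1b did not pass the test without culture mTG12 (adjusted p = 0.0775, adjusted p = 0.0548, adjusted p = 0.0699 and adjusted p = 0.164 in that order).

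Within the same list the genes did not move one way. Ivl, the gene of involucrin, fell from 107, 81.2 and 81.7 CPM to 24.8, 39.8 and 25.7 CPM (log2 fold change -1.59, SE 0.16, adjusted p = 4.32e-05), and the transglutaminase gene Tgm3 by 2.49 on the log2 scale. Sprr3, a small proline-rich precursor, was at 211, 699 and 363 CPM at day 7 and 62.6, 247 and 124 CPM at day 11 (adjusted p = 1.83e-07, and adjusted p = 0.0683 without the block). Crnn, the gene of cornulin in oesophageal and oral epithelium, rose instead, from 16.0, 7.71 and 18.4 CPM to 80.5, 37.6 and 66.2 CPM (log2 fold change 2.14, SE 0.14, adjusted p = 1.39e-06). At 0 Gy, Crnn was at 88.0 ± 59.2 CPM at day 7 and 71.3 ± 25.4 CPM at day 11 (difference 2.34, adjusted p = 0.000114). Cdsn, the gene of corneodesmosin, and Scel, of sciellin, rose by 1.52 and 0.89, and Sbsn had a log2 fold change of 0.16 (adjusted p = 0.283). Among suprabasal keratins, Krt10 fell from 22.1, 22.5 and 23.1 CPM to 6.84, 9.02 and 9.56 CPM. Krt13 fell by 0.61 on the log2 scale (adjusted p = 4.13e-05, and 0.0797 as the adjusted p without the block), Krt80 rose by 1.21, and Krt4 had a log2 fold change of -0.23 (adjusted p = 0.0958). The letters TGANTCA, with any base at N, cover the AP-1 site and were searched on either strand. They were present in the promoter window of 14 of 35 cornified envelope genes (40.0%). The share was 7.82% of all genes with a window and 6.18% of those tested. They were also present in 11 of 38 interferon-stimulated genes (28.9%) and in 0 of 20 immediate early genes.

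**Figure D4:**
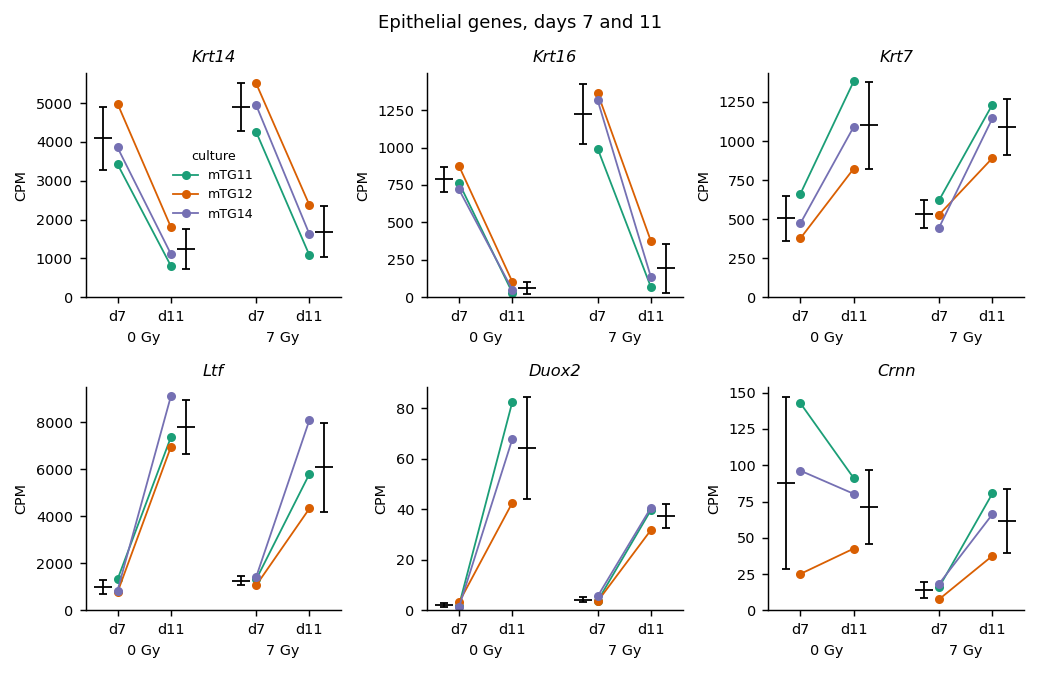
CPM of Krt14 (basal keratin), Krt16 (activated epidermis), Krt7 (simple epithelium), Ltf (lactoferrin), Duox2 (dual oxidase) and Crnn (cornulin) at day 7 (d7) and day 11 (d11) after 0 and 7 Gy. Points are libraries joined by culture, and black bars give mean ± SD (n = 3). Krt14 and Krt16 fall and Krt7, Ltf and Duox2 rise at both doses, and Crnn rises in all 3 cultures at 7 Gy.

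The oxidase genes of hormone production, neighbours on chromosome 2, moved in both directions. Duox2 (chr2:122109728-122128930, minus strand, GRCm39) rose from 3.76, 3.597 and 5.59 CPM to 39.8, 31.9 and 40.7 CPM (log2 fold change 3.11, SE 0.17, adjusted p = 5.5e-07). Duoxa2 (chr2:122129380-122133366, plus strand) rose from 2.76, 5.91 and 6.12 CPM to 83.7, 53.5 and 117 CPM (log2 fold change 4.07, SE 0.21, adjusted p = 3.29e-07). Their homologues in the same cluster, Duox1 and Duoxa1, fell by 0.80 (adjusted p = 0.00735, and adjusted p = 0.156 without the block) and 0.85 (adjusted p = 0.003) on the log2 scale. Duox2 rose less after 7 Gy than at 0 Gy, where it was at 2.14 ± 0.961 CPM at day 7 and 64.3 ± 20.2 CPM at day 11 (difference -1.72, SE 0.48, adjusted p = 0.0323, and adjusted p = 0.198 without mTG11 and 0.4 without mTG14). These 4 were all the called genes among the 10 tested of the thyroid function list. Among epithelial transcription factors, 11 of 28 rose and 3 fell (7 and 3 without the block, 8 and 3 by DESeq2), against 9 and 5 at 0 Gy. Hopx, a homeodomain gene, was at 294, 263 and 303 CPM at day 7 and 712, 657 and 854 CPM at day 11 (log2 fold change 1.36, SE 0.07, adjusted p = 2.55e-07). Elf3, an epithelial Ets factor gene, rose by 1.16, and Elf5 and Sox9 fell by 1.14 and 0.52 on the log2 scale. Nkx2-1, the thyroid and lung factor gene, had a log2 fold change of 0.28 (adjusted p = 0.263), and Sox2 of -0.23 (adjusted p = 0.0724). Foxa1 rose by 0.38 (adjusted p = 0.0136). Klf5 and Grhl3, of epithelial growth and barrier, had log2 fold changes of 0.12 (adjusted p = 0.409) and 0.38 (adjusted p = 0.114). In the Notch pathway, 4 of 15 genes rose and 3 fell (2 and 2 without the block, 2 and 2 by DESeq2), where 11.3% of all genes rose and 10.6% fell. The target Hes1 fell from 174, 159 and 152 CPM to 80.5, 84.0 and 74.6 CPM (log2 fold change -1.02, SE 0.08, adjusted p = 7.57e-06) while the coactivator gene Maml2 rose by 1.01. The receptor gene Notch3 had a log2 fold change of 0.07 (adjusted p = 0.743) and the ligand gene Jag2 of 0.37 (adjusted p = 0.0329, and adjusted p = 0.176 without the block).

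Mucosal defence genes moved in both directions. Of 28 tested, 13 rose and 9 fell (9 and 2 without the block, 11 and 5 by DESeq2) (median 0.37). Without irradiation, 13 of 29 rose and 9 fell (median 0.55). Ltf, the gene of lactoferrin, was at 1315, 1064 and 1421 CPM at day 7 and 5801, 4331 and 8090.1 CPM at day 11 (log2 fold change 2.22, SE 0.08, adjusted p = 5.2e-08). Wfdc2, which encodes a secreted protein of gland epithelium, was at 2811, 1855 and 2144 CPM at day 7 and 4387, 3169 and 3384 CPM at day 11 (log2 fold change 0.69, SE 0.06, adjusted p = 1.77e-05). Lcn2, of the iron-scavenging lipocalin, rose in every culture but differed several-fold between cultures, at 34.3, 44.2 and 175 CPM at day 7 and 184, 96.6 and 666 CPM at day 11 (adjusted p = 1.91e-05, and adjusted p = 0.142 without the block). The mucin gene Muc4 rose by 2.503 and the immunoglobulin receptor gene Pigr by 0.96, whereas the secretoglobin genes Scgb3a1 and Scgb3a2 of airway secretory cells fell by 2.10 and 2.18 on the log2 scale. Of 20 multiciliated cell genes tested, 5 rose and 0 fell (2 and 0 without the block, 1 and 0 by DESeq2), with a mean below 10 CPM for each. Without irradiation, 22 of 25 rose (median 3.68), and 2 had a more negative day change at 7 Gy. Foxj1, their master regulator, was at 0.501, 5.40 and 0.532 CPM at day 7 and 4.98, 10.3 and 3.55 CPM at day 11 (adjusted p = 0.0121, and 0.178 as the adjusted p without the block). At 0 Gy, Foxj1 was at 1.66 ± 1.25 CPM at day 7 and 21.2 ± 7.88 CPM at day 11. Tppp3, a tubulin-binding gene of ciliated cells, was at 1.504, 1.80 and 1.60 CPM at day 7 and 2.27, 6.48 and 3.55 CPM at day 11 (adjusted p = 0.033, and adjusted p = 0.0809 without the block).

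More immediate early genes rose than fell. Of 26 AP-1 and immediate early genes, 16 rose and 1 fell (median 0.60, and 0.59 at 0 Gy). Jun was at 174, 151 and 167 CPM at day 7 and 600.4, 511 and 344 CPM at day 11 (log2 fold change 1.54, SE 0.13, adjusted p = 1.19e-05), and Fosb rose by 2.25 and Atf3 by 1.57 on the log2 scale. Fos rose from 40.4, 29.5 and 38.6 CPM to 96.8, 103 and 56.0 CPM (log2 fold change 1.22, SE 0.18, adjusted p = 0.000597). At 0 Gy, Fos was at 203 ± 17.5 CPM at day 7 and 212 ± 32.3 CPM at day 11 (difference 1.18, adjusted p = 0.00571, and adjusted p = 0.0983 without mTG11 and 0.11 without mTG12). Each 7 Gy library lay below every library at 0 Gy, at both days. Junb and Egr1 did not pass the test (adjusted p = 0.344 and adjusted p = 0.392). In the EGF family and its feedback genes, 8 of 16 rose and 3 fell, against 6 and 1 at 0 Gy. The ligand gene Areg (amphiregulin) fell from 182, 178 and 199.7 CPM to 64.9, 77.2 and 75.4 CPM (log2 fold change -1.37, SE 0.09, adjusted p = 1.2e-06), while the ligand gene Hbegf rose by 0.80 and the receptor inhibitor gene Errfi1 by 1.57. The ERK phosphatase genes Dusp6 and Dusp4 had log2 fold changes of -0.58 (adjusted p = 0.00126) and 1.29 (adjusted p = 5.33e-05). Epgn, the gene of epigen, had a log2 fold change of -0.77 (adjusted p = 0.117).

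Among cytokines and secreted proteases 13 of 35 fell and 4 rose (8 and 3 without the block, 8 and 3 by DESeq2) (median -0.43). Without irradiation, 7 of 36 fell and 9 rose (median -0.18). The chemokine gene Ccl2 fell from 31.8, 51.6 and 45.0 CPM to 11.0, 13.5 and 9.28 CPM (log2 fold change -1.89, SE 0.16, adjusted p = 8.33e-06), and the urokinase gene Plau fell by 1.18 on the log2 scale. Il1a, the gene of interleukin 1 alpha, rose from 20.6, 25.7 and 24.7 CPM to 40.5, 46.2 and 66.1 CPM (adjusted p = 0.000122). The chemokine genes Cxcl5 and Ccl20 did not pass the test (log2 fold changes 0.27 and -0.53). Of 28 TGF-beta and mesenchymal transition genes, 7 rose and 5 fell, where 11.3% of all genes rose and 10.6% fell. The counts were 3 and 4 without the block and 6 and 3 by DESeq2. Over all genes these 2 fits called 2645 and 1641. The hyaluronan receptor gene Cd44 was at 545, 661 and 541 CPM at day 7 and 229, 261 and 224 CPM at day 11 (log2 fold change -1.29, SE 0.07, adjusted p = 4.34e-07), and the matrix gene Tgfbi and the intermediate filament gene Vim fell by 1.56 and 1.15. The matrix gene Fn1 had a log2 fold change of 0.79 (adjusted p = 0.000773) and the ligand gene Tgfb2 of 1.69 (adjusted p = 0.000297). Acta2, of smooth muscle actin, was at 6.02, 10.3 and 14.6 CPM at day 7 and 16.8, 13.3 and 198 CPM at day 11 (log2 fold change 2.41, SE 0.44, adjusted p = 0.00237). The day 11 library of mTG14 stood apart, and Acta2 did not pass the test without the block (adjusted p = 0.103) or without culture mTG14 (adjusted p = 0.0581).

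In the stress programme of ATF4, the transcription factor of amino acid shortage, 14 of 24 genes rose and 1 fell (median 0.56), against 15 and 1 at 0 Gy (median 0.64). The day change was more positive at 7 Gy for 4 of them and more negative for 4. Asns, the gene of asparagine synthetase, was at 40.4, 42.4 and 38.3 CPM at day 7 and 78.6, 65.5 and 80.8 CPM at day 11 (log2 fold change 0.88, SE 0.11, adjusted p = 0.000173). Trib3, a feedback inhibitor gene, was at 14.5, 16.7 and 20.5 CPM at day 7 and 13.3, 15.7 and 21.6 CPM at day 11 (adjusted p = 0.842). At 0 Gy, Trib3 was at 13.0 ± 1.82 CPM at day 7 and 48.5 ± 8.85 CPM at day 11 (difference -1.94, SE 0.25, adjusted p = 1.53e-05). Nupr1 rose by 1.05 and Chac1 by 0.93, Ddit3 had a log2 fold change of 0.55 (adjusted p = 0.0649), and Ddit4, an inhibitor gene of mTOR signalling, fell by 1.31. Among glutathione and NRF2 genes 10 of 26 rose and 3 fell, against 6 and 6 at 0 Gy. The glutathione transferase gene Gstm1 rose from 62.7, 46.8 and 63.1 CPM to 187, 141 and 151 CPM (log2 fold change 1.47, SE 0.10, adjusted p = 1.93e-06) and Nqo1 by 0.45. Hmox1 and Gpx2 did not pass the test (adjusted p = 0.73 and adjusted p = 0.218).

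Genes of lipid synthesis and glycolysis had a more positive day change after 7 Gy than at 0 Gy, and those of the mitochondrial genome a more negative one. Of 34 cholesterol and fatty acid synthesis genes, 20 fell and 2 rose at 7 Gy (15 and 0 without the block, 14 and 2 by DESeq2, 18 and 2 in the fit of 24 libraries) (median -0.38). Without irradiation 34 fell (median -1.47), and 26 had a more positive day change at 7 Gy. Hmgcs1, of HMG-CoA synthase, was at 163, 201 and 174 CPM at day 7 and 99.3, 117 and 105 CPM at day 11 (log2 fold change -0.74, SE 0.08, adjusted p = 5.07e-05). At 0 Gy, Hmgcs1 was at 289 ± 17.2 CPM at day 7 and 72.7 ± 7.13 CPM at day 11 (difference 1.25, SE 0.17, adjusted p = 3.29e-05). The 7 Gy level was the lower at day 7 and the higher at day 11. Sqle, of squalene epoxidase, fell by 0.60 on the log2 scale, and Hsd17b7 by 1.45. Of 25 glycolysis and hypoxia genes 8 fell and 8 rose, and 21 had a more positive day change than at 0 Gy (11 without culture mTG11 and 10 without mTG14). The glycolytic enzyme genes Ldha and Pkm fell by 0.56 and 0.75, whereas the hypoxia-inducible genes Adm and Egln3 rose by 2.08 and 1.23. Egln3, a prolyl hydroxylase gene that senses oxygen, was at 85.5, 60.4 and 89.1 CPM at day 7 and 189, 181 and 176 CPM at day 11. At 0 Gy, Egln3 was at 302 ± 52.9 CPM at day 7 and 166 ± 12.8 CPM at day 11. Car9, of carbonic anhydrase 9, was at 3.76, 4.63 and 2.13 CPM at day 7 and 12.6, 7.92 and 9.56 CPM at day 11 (adjusted p = 0.00269), and the glucose transporter gene Slc2a1 had a log2 fold change of -0.25 (adjusted p = 0.0771).

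Of the 13 mitochondrially encoded protein genes 11 fell and 0 rose at 7 Gy (median -0.47). In the fit of 24 libraries 8 fell at 7 Gy, against 1 that fell and 3 that rose at 0 Gy, and 8 had a more negative day change at 7 Gy. ND1, a subunit of complex I, was at 1537, 1599 and 1719.9 CPM at day 7 and 829, 906 and 984 CPM at day 11 (log2 fold change -0.84, SE 0.06, adjusted p = 3.76e-06). At 0 Gy, ND1 was at 1408 ± 100.5 CPM at day 7 and 1252 ± 62.9 CPM at day 11. CYTB, of complex III, was at 1754, 1842 and 2067 CPM at day 7 and 1002, 1090.2 and 1149.8 CPM at day 11 (log2 fold change -0.81, SE 0.06, adjusted p = 6.69e-06). COX1 did not pass the test (log2 fold change 0.08, adjusted p = 0.497). The mitochondrial ribosomal RNA genes mt-Rnr1 and mt-Rnr2, among the 5 most expressed genes, had log2 fold changes of 0.01 and 0.04 (adjusted p = 0.967 and adjusted p = 0.739). Of 61 nuclear genes of the respiratory chain, 16 fell and 3 rose (10 and 3 without the block, 7 and 2 by DESeq2), Cox4i1 falling by 0.28 (adjusted p = 0.0142, and adjusted p = 0.0666 without the block) and Ndufb8 having a log2 fold change of -0.06 (adjusted p = 0.675). Of 81 cytosolic ribosomal protein genes 27 rose and 4 fell (15 and 1 without the block, 16 and 2 by DESeq2), with small changes (median 0.13), against 27 and 6 at 0 Gy (median 0.15). Rplp0 had a log2 fold change of -0.23 (adjusted p = 0.0236, and adjusted p = 0.103 without the block) and Rps6 of 0.27 (adjusted p = 0.0157). Among the most abundant genes, Gsto1, a glutathione transferase gene, rose from 8899, 10543 and 9495 CPM to 16649.7, 16047 and 18063 CPM. Sprr2a1, a cornified envelope precursor gene whose values were fractional in all 6 libraries, as where reads are split between similar genes, fell from 14333, 14989.8 and 16349 CPM to 7026, 9338 and 8842 CPM. Rn18s-rs5, of ribosomal RNA, was at 59377, 38844 and 71283 CPM at day 7 and 81177, 55494 and 46804 CPM at day 11 (adjusted p = 0.677, and adjusted p = 0.000963 without mTG14).

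Over all genes the day change differed between 7 and 0 Gy for 1153 of 21928 genes (5.26%), 791 more positive and 362 more negative at 7 Gy. The count was 340 without culture mTG11, 586 without mTG14 and 888 without mTG12, and it was 660 without the block. Against 2 Gy the day change at 7 Gy differed for 596 genes (2.72%) and against 4 Gy for 67 (0.306%), or 352 and 19 without the block. Of the 45 mitosis genes, 40 had a more positive day change at 7 than at 2 Gy, where 2.16% of all genes did, and 13 a more positive one than at 4 Gy, where 0.278% did. The median of the list was -1.87 at 0 Gy, -1.83 at 2 Gy, -1.03 at 4 Gy and 0.04 at 7 Gy in the fit of 24 libraries. For Mki67 the log2 fold changes in that order were -2.28, -1.86, -0.92 and 0.79. The p53 target median went from 0.65 at 0 Gy over 0.14 and -0.09 to -0.22 at 7 Gy. Of the 30 targets, 4 had a more negative day change at 7 than at 2 Gy, and 0 differed in either direction between 7 and 4 Gy. At an unadjusted p under 0.05 in edgeR, 15 and 4 differed in either direction. Rn7sk, Mcam and Atg9b were among the 6 genes with the most negative difference from 0 Gy. Rn7sk, a small nuclear RNA gene whose product inhibits transcription elongation, was at 129, 77.4 and 99.0 CPM at day 7 and 88.7, 55.8 and 61.7 CPM at day 11 after 7 Gy (adjusted p = 0.00104, and adjusted p = 0.129 without the block). It was at 35.5 ± 14.7 CPM at day 7 and 186 ± 61.0 CPM at day 11 at 0 Gy (difference -2.90, SE 0.31, adjusted p = 1.57e-06). The values of Rn7sk were fractional in 5 of the 6 libraries at 7 Gy, as where reads are split between similar genes. Mcam, a cell adhesion gene, was at 56.0, 68.3 and 49.2 CPM at day 7 and 24.3, 36.5 and 26.8 CPM at day 11 after 7 Gy. At 0 Gy, Mcam was at 6.34 ± 1.95 CPM at day 7 and 18.4 ± 0.852 CPM at day 11 (difference -2.52, SE 0.27, adjusted p = 1.57e-06). Atg9b, an autophagy gene, was at 120.1, 123 and 135 CPM at day 7 and 49.3, 63.0 and 46.7 CPM at day 11 after 7 Gy. At 0 Gy, Atg9b was at 27.0 ± 2.71 CPM at day 7 and 51.6 ± 11.0 CPM at day 11 (difference -2.20, SE 0.33, adjusted p = 9.31e-05). For Mcam and Atg9b every 7 Gy library at day 7 lay above every 7 Gy library at day 11 and every 0 Gy library at both days. At 4 Gy, Mcam was at 49.1 ± 6.91 CPM at day 7 and also fell (log2 fold change -0.76, adjusted p = 0.00073). The log2 fold change of Atg9b at 4 Gy was -0.28 (adjusted p = 0.405). The difference between 7 and 4 Gy in the day change passed the test for neither Mcam (-0.24, adjusted p = 0.842) nor Atg9b (-0.98, adjusted p = 0.238). The uncharacterised gene 9530053A07Rik (difference -2.56), Adam12 (-2.36) and Eda2r (-2.31) made up the 6.

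**Figure D5:**
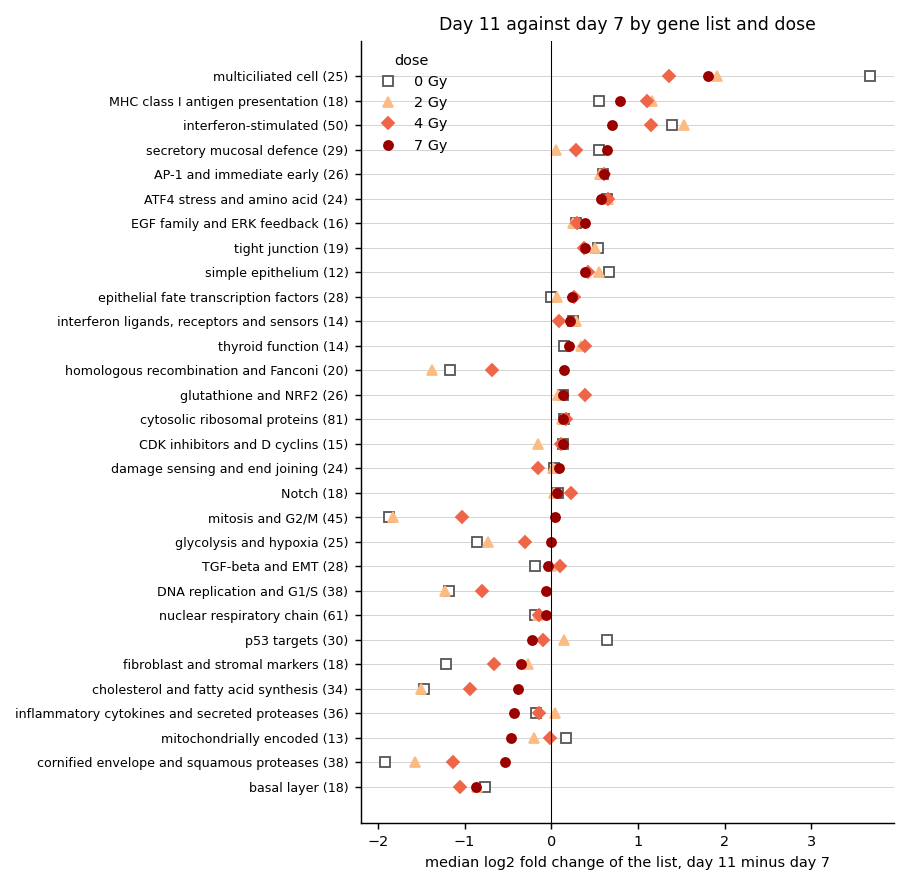
Median log2 fold change, day 11 minus day 7, of each gene list with at least 10 genes tested at 7 Gy, by dose, in the fit of 24 libraries. Numbers in parentheses are the genes in the fit. The 7 Gy circles of mitosis, DNA replication and glycolysis lie near 0 and their 0 and 2 Gy symbols lie below, and the p53 targets run from above 0 at 0 Gy to below it at 7 Gy.

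Stromal, endothelial, leukocyte and C cell markers were measured beside the epithelial genes. Of 18 fibroblast and stromal markers, 4 fell and 1 rose at 7 Gy (1 and 0 without the block, 3 and 1 by DESeq2), where 10.6% of all genes fell and 11.3% rose. Their sum ranged from 369 to 450.4 CPM at day 7 and from 231 to 352 CPM at day 11. The collagen gene Col1a1 was at 18.0, 42.1 and 20.8 CPM at day 7 and 2.62, 19.8 and 7.74 CPM at day 11 (log2 fold change -1.53, SE 0.23, adjusted p = 0.000673, and adjusted p = 0.121 without the block). Postn was at 2.26, 1.54 and 5.59 CPM at day 7 and 2.97, 3.24 and 46.3 CPM at day 11 (adjusted p = 0.00186, and 0.2 as the adjusted p without the block), again with the day 11 library of mTG14 apart. Without culture mTG14 its adjusted p was 0.321, and without this library alone its log2 fold change was -0.0059 in the fit with no block. Dcn had a log2 fold change of -0.18 (adjusted p = 0.666), the collagen gene Col3a1 of -1.06 (adjusted p = 0.0973), and the matrix gene Sparc of -0.37 (adjusted p = 0.0136). The endothelial markers summed to 6.12 to 12.1 CPM at day 7 and to 4.64 to 8.64 CPM at day 11, and 8 of 10 were not tested. Pecam1, a surface marker of endothelium, was at 0.752, 0.771 and 0.532 CPM at day 7 and 0.699, 0.180 and 0.546 CPM at day 11. Of 8 leukocyte markers tested 4 rose and 1 fell, with a sum of 34.8 to 45.2 CPM at day 7 and 72.3 to 95.7 CPM at day 11. Among them the integrin gene Itgam was at 1.504, 1.80 and 3.19 CPM at day 7 and 25.5, 11.3 and 27.0 CPM at day 11. The lysosomal gene Cd68 was at 12.9, 18.2 and 13.6 CPM at day 7 and 46.1, 34.9 and 39.1 CPM at day 11 and the lysozyme gene Lyz2 at 11.0, 16.2 and 7.72 CPM at day 7 and 2.80, 6.30 and 2.73 CPM at day 11. The genes Ptprc and Cd3e had too few counts to be tested. Of the C cell and parathyroid markers Calcb was the called gene, and Calca was at 0.752, 1.03 and 0.266 CPM at day 7 and 0, 0.360 and 0 CPM at day 11. The part of these cells in the changes of other genes was not tested.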

How the data were processed

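Smart3SEQ libraries (a 3′ end method) had been prepared by the authors from 80 ng of RNA with RIN values above 9 and sequenced as single reads of 75 bp. STAR, edgeR and the build GRCm39 are named in the submitters' processing notes, and the counting tool, annotation, strand setting and handling of molecular identifiers are not given in the sources used here. The deposited values are estimated counts per gene, of which 55.8% of the non-zero values in the 6 libraries at 7 Gy were whole (within 0.005). They were rounded before testing, so the test planned for whole counts was run on rounded estimated counts.

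Genes whose counts summed to 10 or more in a fit were tested with edgeR 4.0.16 (R 4.3.3), with TMM normalization, the quasi-likelihood test, culture as a block and Benjamini-Hochberg adjustment at 0.05. The fit of day 11 against day 7 at 7 Gy held 6 libraries, and that of differences between doses held 24. Day changes and list counts at 0, 2 and 4 Gy come from the fit of 24 libraries. Those at 7 Gy come from the fit of 6 unless stated. The culture names pair the samples by the design of the column names, and the correlations of their deviations were all above 0.1 (lowest 0.305). With the block, p-values measure the spread left after the cultures' own levels are taken out, so how the day change varies between these cultures. In the fit of 24 libraries this spread is shared by all doses. No 2 libraries of a group were alike within sampling noise (chi-square per degree of freedom 4.35 to 13.9). CPM were computed from library totals (3661836 to 5723150 counts in the 6 libraries), and floors of 3 counts cover counting error only. Gene coordinates were matched by symbol for 16851 of the 18173 genes.

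Named genes were the 12 largest rises and 12 largest falls among genes called, averaging 10 CPM or more and without overlap of the groups, the 6 most positive and 6 most negative differences from 0 Gy, the lead genes of 34 lists, the called members with the largest changes, and the 5 most expressed genes. Genes named outside this rule (Cdc20, Gdf15, Tg and members that were not tested) were chosen after their values were seen, and some genes of the rule are not reported here. The members and lists were chosen with earlier results of these data known. Alternatives were DESeq2 1.42.0, DESeq2 size factors, no normalization factors, no filter, filterByExpr, no block, other sets of libraries or genes, and leaving out each library or culture. The fits were tested on simulated data.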

Additional observations from a re-analysis of the deposited data

Results flagged for a closer look

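The change from day 7 to day 11 differed between 7 Gy and 0 Gy for 1153 genes by the interaction test in edgeR, between 7 Gy and 2 Gy for 596 and between 7 Gy and 4 Gy for 67. Among the genes named by rule and reported here, 53 differed between 7 Gy and 0 Gy, 32 with a more positive change at 7 Gy and 21 with a more negative one. Values are differences of log2 fold changes, 7 Gy minus 0 Gy, with adjusted p under 0.05.

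Among cornified envelope and squamous genes the differences were 5.93 for Asprv1, 5.92 for Lce3e, 5.90 for Lce3f, 5.63 for Rptn, 5.60 for Dsg1b, 5.00 for Lor, 4.36 for Lce3b, 3.21 for Sprr1b, 2.34 for Crnn and 2.15 for Sprr3. Lce3b, Lce3e, Lce3f and Dsg1b had fractional values and may share reads with similar genes. In cell division, replication and repair genes they were 3.07 for Mki67, 2.02 for Ccnb1, 1.93 for Cdk1, 1.87 for Top2a, 1.84 for Plk1, 1.71 for Mcm5, 1.48 for Rrm2, 0.93 for H2ax, 0.74 for Lmnb1 and 0.66 for Pcna. In p53 targets and the D cyclin they were -2.31 for Eda2r, -1.41 for Ccng1, -1.37 for Mdm2, -1.14 for Cdkn1a and -0.59 for Ccnd1. Genes of interferon response and antigen presentation lay on both sides of 0, with 2.55 for Ifi27l2a, 1.15 for H2-K1, 1.00 for B2m, -1.15 for Irf7 and -1.34 for Ifit1. For metabolism, hypoxia and the mitochondrial genome the values were 1.88 for Car9, 1.25 for Hmgcs1, 1.02 for Slc2a1, 0.91 for Sqle, 0.90 for Ldha, -0.50 for Gsto1, -0.53 for COX1 and -0.67 for ND1. Stress genes of the ATF4 list had -1.20 for Chac1 and -1.94 for Trib3.

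The values of signalling, matrix and epithelial genes were 2.23 for Igfbp2, 1.18 for Fos, 0.99 for Trp63, 0.88 for Tgfbi, -0.59 for Cldn4, -0.62 for Areg, -1.58 for Stab1 and -1.72 for Duox2. The remaining genes were among the most negative, with -2.20 for Atg9b, -2.36 for Adam12, -2.52 for Mcam, -2.56 for 9530053A07Rik and -2.90 for Rn7sk. Without 1 culture, the difference no longer passed the test for 16 of the named genes without mTG11, 10 without mTG12 and 14 without mTG14. Without mTG11 these were Areg, COX1, Car9, Ccnd1, Cldn4, Dsg1b, Duox2, Fos, H2ax, Ifit1, Irf7, Lmnb1, Pcna, Sprr3, Tgfbi and Trp63. Without mTG12 they were Chac1, Cldn4, Dsg1b, Fos, Lce3e, Lce3f, Pcna, Plk1, Rptn and Tgfbi. Without mTG14 they were Areg, B2m, COX1, Car9, Ccnd1, Chac1, Duox2, H2-K1, Ifit1, Irf7, Lmnb1, Pcna, Rrm2 and Tgfbi. Pcna and Tgfbi lost the call whichever culture was left out.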

How the results depend on the processing

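The count of genes changed between day 11 and day 7 at 7 Gy (3974) was 1641 by DESeq2 and 2645 without the replicate block, and leaving out 1 library or culture gave 1465 to 3119. The count differing from 0 Gy (1153) was 660 without the block and 340 to 888 without 1 culture, and those differing from 2 Gy (596) and from 4 Gy (67) were 352 and 19 without the block. Of the list counts at 7 Gy, leaving out 1 library or culture gave 6 to 11 for p53 targets that fell (12, and 7 by DESeq2), 2 to 34 for interferon-stimulated genes that rose (31, and 5 without the block), 6 to 14 for antigen presentation genes that rose (12), 11 to 14 for basal genes that fell (15) and 12 to 17 for immediate early genes that rose (16). The counts with a more positive change than at 0 Gy ranged without 1 culture over 12 to 18 for replication (24), 33 to 40 for mitosis (43), 11 to 18 for cornified envelope genes (19, and 11 without the block), 20 to 25 for lipid synthesis (26) and 10 to 21 for glycolysis (21), and that of p53 targets with a more negative change (18) over 9 to 17. DESeq2 size factors gave 3971 genes, no normalization factors 3922, no filter 4419, filterByExpr 3898 and the fit of 24 libraries 3766. Of the 238 named genes tested for a day change, 42 lost the call without the block and 30 by DESeq2, and the sign turned for Postn alone, at -0.0059 without the day 11 library of mTG14 (leaving out 1 library or culture gave -0.0059 to 3.09 for Postn). Fits that left out 1 library had no block, so their lower counts reflect both changes. Among the genes named in the report, calls of the day change were lost without mTG11 for Cdkn1a, Cox4i1, Jag2, Lig1 and Rplp0, without mTG12 for Cdkn1a, Foxa1, Isg15, Jag2, Knl1, Krt15, Ocln, Plk2, Rplp0, Rps6, Rrm1, Sparc, Tppp3 and Trp53, and without mTG14 for Acta2, Cdkn1b, Cox4i1, Duox1, Foxj1, Isg15, Jag2, Lig1, Lor, Nqo1, Ocln, Postn, Rplp0, Rps6, Rrm1 and Tppp3, with an adjusted p of 0.0502 (Foxj1) to 0.321 (Postn), and the cause was not tested. Calls were gained without mTG11 for Asprv1, Cxcl5, Egr1, Krt4, Rptn and Sox2, without mTG12 for Asprv1, Col3a1, Dcn, Ddit3, Plk1 and Rptn, and without mTG14 for Atm, Cdkn2a, Krt8 and Rn18s-rs5, with an adjusted p of 0.000963 (Rn18s-rs5) to 0.0365 (Cdkn2a). Genes near the floor of 3 counts carry the least precise changes.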
